A study of Mus musculus with 24 samples.

Results

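The nuclear lamina was followed through 8 genes of the deposited expression table, out of 23306 listed there: the lamins Lmnb1, Lmnb2 and Lmna, and the inner nuclear membrane proteins Tmpo, Lbr, Emd, Sun1 and Sun2. Lmnb1 had been picked from these data for its fall between day 18 and day 27 in precipitated ribosomes, so its course over days in that fraction is described here without a test. The other 7 genes are listed with it as proteins of the same structure. All 8 passed the filter on low values in each fit.

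The lamina is the filament meshwork under the inner nuclear membrane. B-type lamins stay attached to the membrane through a farnesyl group, while lamin A is cleaved to a mature form that lacks it, and lamin C, a splice product of the same gene, never carries it. In the developing mouse brain, B-type lamins are needed for the nuclei of migrating neurons to move with the cell, and the ratio of A-type to B-type lamins is known to differ widely between tissues and to be low in the brain. Proteins of the inner membrane hold chromatin and lamina together, and the SUN proteins reach across the envelope to nesprins, which hold the cytoskeleton.

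The mice carried the tamoxifen-dependent Nes-CreERT2 driver and a RiboTag allele (RPL22HA/WT), so that cells in which the Nestin promoter is active at the time of tamoxifen, and all cells descending from them, make ribosomes with an HA-tagged Rpl22. Both activity groups carried both alleles and had received tamoxifen at 160 mg/kg on each of 5 days at an age of 9 to 11 weeks. The animals were female C57BL6 mice. Running mice were housed singly with a wheel that turned, and sedentary mice had the same cage with the wheel fixed, for 11, 18 or 27 days. From the dentate gyrus, where granule neurons are added in adult life, 12 libraries hold RNA pulled down with the tagged ribosomes (IP), labelled as coming from immature neurons, and 12 were made from the tissue without precipitation (input). Every fraction, activity and day is held by 2 libraries, whose letters are a and b (day 11), c and d (day 18) or e and f (day 27). Whether they stem from different mice is not stated in the labels, so a p-value here reflects the spread between libraries only, and that spread may be technical.

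Values are TPM (a length-scaled share of each library's RNA), so levels can be compared between genes, but the read depth is unknown. The IP held immature-cell markers well above input: Dcx averaged 119 ± 41.6 TPM in IP and 14.7 ± 1.35 TPM in input, and the division gene Top2a averaged 54.3 ± 23.2 TPM in IP and 3.15 ± 0.881 TPM in input (SD, n = 12 each). Mbp of oligodendrocytes was lower in IP but not absent, at 120.3 ± 13.9 TPM in IP and 224 ± 42.7 TPM in input. Cx3cr1 of microglia was likewise lower, at 11.9 ± 2.46 TPM in IP and 24.1 ± 1.75 TPM in input. The summed TPM of 10 oligodendrocyte markers went the other way, at 912 to 1402 in IP and 523 to 821 in input. Of these 10 markers 8 fell in IP and 1 rose (median log2 difference -0.97), so the sum does not describe most of them. Gfap of stem cells and astrocytes was present at 410 ± 88.6 TPM in IP and 279.9 ± 35.0 TPM in input. At day 11 both IP libraries with the letter a stood apart by the lowest mean TPM over 1115 olfactory receptor genes (1.72 and 1.81, against a highest IP value of 5.01), and the running one held 17.4% of its TPM in the RNA Rpph1 (4.58% to 9.16% in the other IP libraries). Input libraries of day 18 stood apart in the other direction, with olfactory receptor means of 12.4 ± 3.43 TPM, while day 11 had 2.002 ± 1.62 TPM and day 27 had 4.25 ± 1.27 TPM (SD over 4 libraries). In the IP these means were 2.43 ± 0.774, 2.97 ± 0.428 and 3.95 ± 0.962 TPM at days 11, 18 and 27. Rpph1 held 9.17 ± 5.48%, 6.47 ± 1.99% and 5.25 ± 0.410% of IP TPM at these days. The part of these values in the IP courses over days was not tested.

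Tmpo, Lmna and Sun1 are the members that passed the test between day 27 and day 11 in the IP, where Tmpo fell and Lmna and Sun1 rose. The Sun1 call was lost in 10 of 12 fits that left out 1 IP library. The 250 bases before a start site of each of the 3 genes are shown. The sequences are from RefSeq (GRCm38.p6), written 5′ to 3′ on the strand of the gene, at chr10:91171620-91171869 (minus strand) for Tmpo, chr3:88503353-88503602 (minus strand) for Lmna and chr5:139200387-139200636 (plus strand) for Sun1. Capitals mark CCAAT, the box bound by NF-Y, on either strand (ATTGG is its reverse complement).
Tmpo: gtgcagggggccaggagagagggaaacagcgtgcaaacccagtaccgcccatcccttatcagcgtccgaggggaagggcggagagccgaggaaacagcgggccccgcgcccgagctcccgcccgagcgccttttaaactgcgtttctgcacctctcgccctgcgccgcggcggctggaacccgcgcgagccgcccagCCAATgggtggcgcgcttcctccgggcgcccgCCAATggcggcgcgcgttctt
Lmna: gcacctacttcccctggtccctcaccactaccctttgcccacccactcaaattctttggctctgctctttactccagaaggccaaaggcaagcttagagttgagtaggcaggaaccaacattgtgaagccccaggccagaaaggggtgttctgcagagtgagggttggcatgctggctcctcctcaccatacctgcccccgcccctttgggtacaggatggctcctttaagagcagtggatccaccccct
Sun1: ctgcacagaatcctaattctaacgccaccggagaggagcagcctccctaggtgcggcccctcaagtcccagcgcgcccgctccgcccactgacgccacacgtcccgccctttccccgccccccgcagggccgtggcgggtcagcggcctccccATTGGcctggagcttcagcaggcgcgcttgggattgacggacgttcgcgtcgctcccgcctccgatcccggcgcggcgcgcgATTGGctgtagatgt
The Tmpo and Sun1 windows each held the box 2 times and this Lmna window held it 0 times. The windows shown are those of the more upstream of 2 starts listed for each gene, and the 250 bases before the other start held the box 0 times for Tmpo and 1 time each for Lmna and Sun1, so the difference between the genes depends on the start taken. For Tmpo and Lmna the windows shown lie inside the gene spans given below, not at their 5′ ends, and for Sun1 the window ends where the span begins. Both strands of the 300-base promoter windows (250 bases before to 50 after a start) were searched for the CCAAT box and for 3 other motifs. The core of the cell cycle homology region was searched as TTTGAA, and an E box as the letters CACGTG. Sites of E2F factors were searched under 4 spellings, of which the first was TTGGCGC. The next spelling searched was TTCCCGC, followed in the same way by the spelling TTCGCGC, and the last spelling searched for these factors was TTGCCGC. None of these motifs contains another, but the reverse complement of the CCAAT box and the first E2F spelling can share letters. CCAAT was present in 37.4% of 32851 windows of the table, in 7 of 11 windows of the 7 members scanned (all but Lmnb1, which was not scanned) and in 21 of 23 windows of genes on the list of dividing-cell markers. TTTGAA was in 17.9% of all windows, 3 of 11 member windows and 13 of 23 windows of dividing-cell genes. An E2F spelling was in 9.57% of all windows, 2 of 11 member windows (Lmnb2 and a second start of Tmpo) and 7 of 23 windows of dividing-cell genes. CACGTG was in 7.15% of all windows and in 0 of the member windows. These matches describe the letters of the windows.

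On GRCm38, the mm10 assembly, the lamin genes lie at chr18:56707813-56753424 on the plus strand (Lmnb1), chr10:80901203-80918245 on the minus strand (Lmnb2) and chr3:88480147-88509956 on the minus strand (Lmna), and no annotated exon of another gene overlaps their exons. Tmpo lies at chr10:91147571-91181315 on the minus strand, Lbr at chr1:181815335-181843046 on the minus strand, Emd at chrX:74254687-74261548 on the plus strand, Sun1 at chr5:139200637-139249840 on the plus strand, and Sun2 at chr15:79724070-79742536 on the minus strand. Exons of these 5 overlap those of other annotated genes (Gm26765 for Tmpo, Dnah14 and Gm26004 for Lbr, Gm14686 for Emd, 4930520M14Rik for Sun1 and Gm16575 for Sun2), and with no strand setting known for the quantification, their TPM may include reads of those genes. The TPM of Lmna pools the transcripts of lamin A and lamin C, and that of Tmpo pools the isoforms of lamina-associated polypeptide 2.

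In the IP, Lmnb1 had the highest mean level of the 8 genes, 113 ± 41.8 TPM (SD, n = 12), above 93.0% of the genes in the table. Tmpo followed at 65.3 ± 12.2 TPM, Sun1 at 49.5 ± 6.73 TPM, Lmna at 33.8 ± 10.9 TPM, Sun2 at 33.3 ± 5.83 TPM, Emd at 27.3 ± 3.29 TPM, Lmnb2 at 23.1 ± 4.39 TPM and Lbr at 17.9 ± 2.30 TPM. The ranges over 12 libraries of every pair of neighbours in that order overlapped, and within each of the 12 IP libraries Lmnb1 was above Tmpo. In input the order was different: Sun1 (35.2 ± 4.97 TPM) and Tmpo (32.0 ± 4.35 TPM) were highest, Lmna (28.2 ± 5.63 TPM) was the leading lamin, and Lmnb1 came next with 19.5 ± 5.02 TPM. Emd (19.3 ± 2.22 TPM), Sun2 (15.7 ± 2.18 TPM), Lmnb2 (12.7 ± 1.96 TPM) and Lbr (10.9 ± 1.98 TPM) followed, and here too the ranges of all neighbours overlapped.

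**Figure D1:**
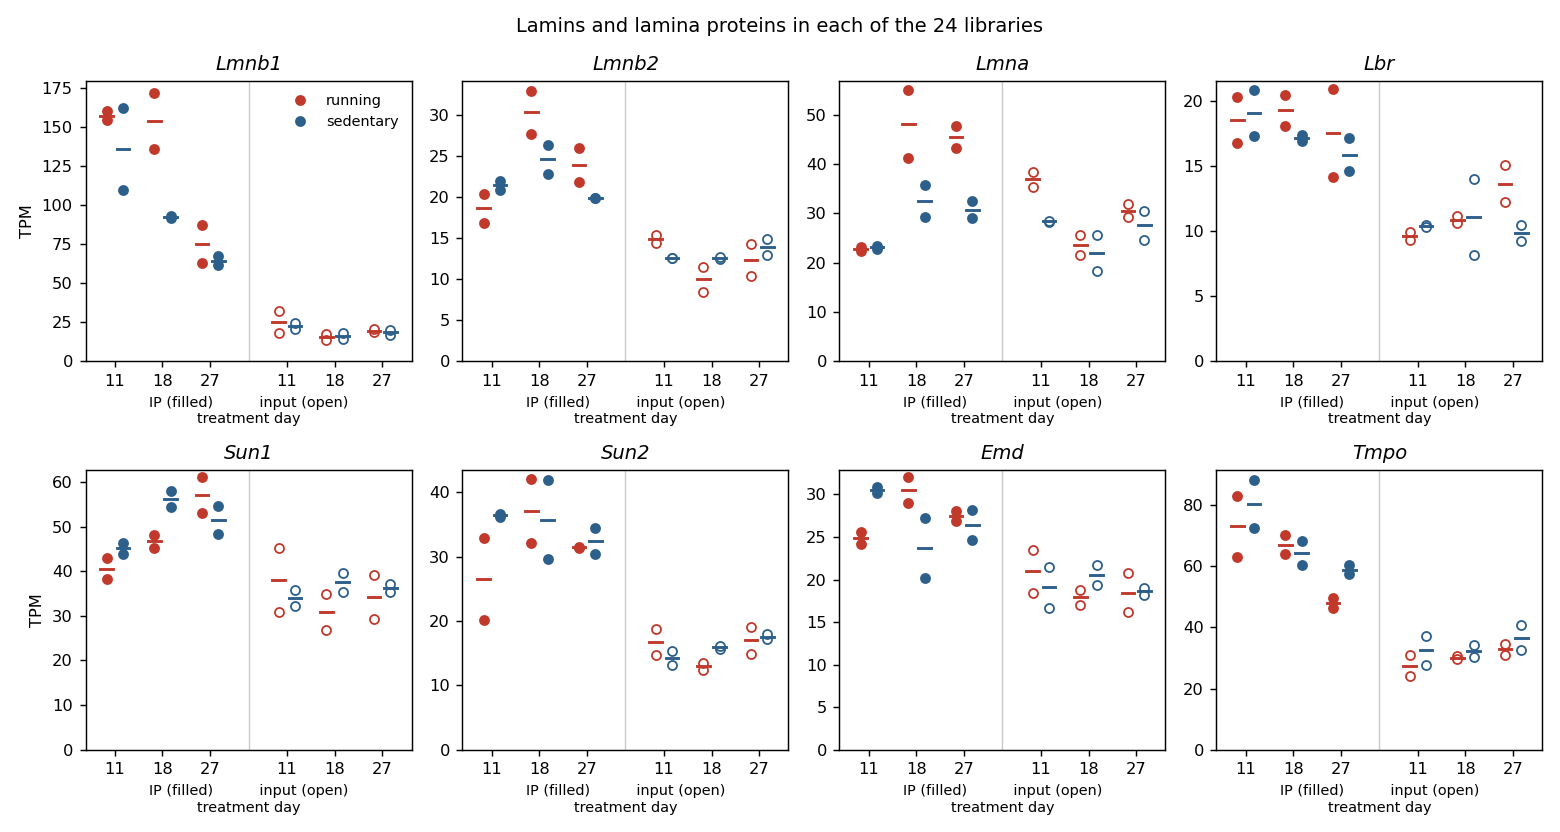
TPM of each of the 8 genes (vertical axes, each starting at 0) in all 24 libraries, with IP as filled and input as open points, running in red and sedentary in blue, by treatment day; horizontal bars are means of 2 libraries. Lmnb1 lies between 61.5 and 172 TPM in IP, above all its input libraries, which reach 32.3 TPM at most.

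Lmnb1, the lamin B1 gene, was 2.42 ± 0.10 log2 units higher in IP than in input over all days (SE, limma adjusted p = 7.9e-14), with every IP library above every input library. Its IP values of day 18 and day 27 chose the gene and enter this difference, so the p is not independent of the choice. The other 7 genes were also higher in IP when all days were pooled: Sun2 by 1.02 ± 0.09, Tmpo by 1.00 ± 0.07, Lmnb2 by 0.81 ± 0.08, Lbr by 0.67 ± 0.09, Sun1 by 0.48 ± 0.07, Emd by 0.48 ± 0.07 and Lmna by 0.22 ± 0.07 (log2 difference ± SE, limma adjusted p between 4.6e-10 for Tmpo and 0.0126 for Lmna). IP and input libraries did not overlap for Lmnb1, Lmnb2, Sun2 and Tmpo, and they overlapped for Lmna, Lbr, Sun1 and Emd. The share of all genes without such overlap is not given here, so this split has no background to be read against. By the limma test 8 of 8 members rose in IP. Of 19507 tested genes 69.9% passed in either direction and 41.4% rose. The median difference of the members was 0.74, against 0.12 for all genes tested. Fewer cells of a type and less RNA per cell cannot be told apart in such bulk samples.

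The direction of Lmna in this comparison depended on how it was taken. With TPM rescaled by the median of gene ratios, which moved the median of all genes by -0.24 and the share of calls that were higher to 40.1% (59.3% with TPM as deposited), Lmna was at -0.054, and without day 18 it was at -0.059, while the other 7 members rose under both settings. Without the letter a libraries Lmna was at 0.20 with a limma adjusted p of 0.0565.

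Taken by day, the family split. Lmnb1 was higher in IP by 2.59 ± 0.17 at day 11, 2.86 ± 0.17 at day 18 and 1.82 ± 0.17 at day 27 (log2 difference ± SE). The median of all genes was 0.20, 0.02 and 0.23 at these days. From day 11 to day 18 the mean of Lmnb1 fell in IP (147 to 123 TPM) and in input (23.9 to 15.65 TPM). Each difference by day thus also carries the input libraries, of which those of day 18 stood apart. Tmpo, the gene of the lamina-associated polypeptides 2, was higher by 1.33 ± 0.13, 1.05 ± 0.13 and 0.61 ± 0.13 at these days. Lbr, the lamin B receptor, was higher by 0.84 ± 0.16, 0.70 ± 0.16 and 0.48 ± 0.16. Lmna took another course, at -0.48 ± 0.13 at day 11 (limma adjusted p = 0.00503), 0.78 ± 0.13 at day 18 and 0.36 ± 0.13 at day 27.

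At day 11, where 41.2% of genes passed in either direction (29.2% higher and 12.1% lower), 6 members rose in IP, Lmna fell, and Sun1, a SUN protein of the inner membrane, did not pass (0.26 ± 0.13, limma adjusted p = 0.119) but did without the running input library a of day 11 (0.39, adjusted p = 0.0184). At day 18, with 64.0% of genes passing (33.0% higher), all 8 rose, and at day 27, with 48.9% passing (34.6% higher), all 8 rose. Lmnb1 is counted at both days although its IP values of these days chose it. The rescaled TPM left 5 members called at day 11 (Lmnb1, Lbr, Sun2 and Tmpo higher, Lmna lower, and Sun1 at -0.0069), 7 at day 18 (all but Emd, at 0.23 with an adjusted p of 0.106) and 4 at day 27 (Lmnb1, Lmnb2, Sun1 and Sun2). At day 27 the calls of Lmna and Lbr were each lost when any of 4 single libraries was left out. For Lmna these were sedentary e and running f of the IP and sedentary e and running f of input (adjusted p up to 0.121), and for Lbr sedentary f and running f of the IP and sedentary e and running e of input (adjusted p up to 0.104). Lmnb2, the second B-type lamin, was most separated at day 18 (1.22 ± 0.13), as was Sun2 (1.27 ± 0.15), and Emd, the emerin gene, stood at 0.45 ± 0.13, 0.46 ± 0.13 and 0.52 ± 0.13 over the 3 days.

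**Figure D2:**
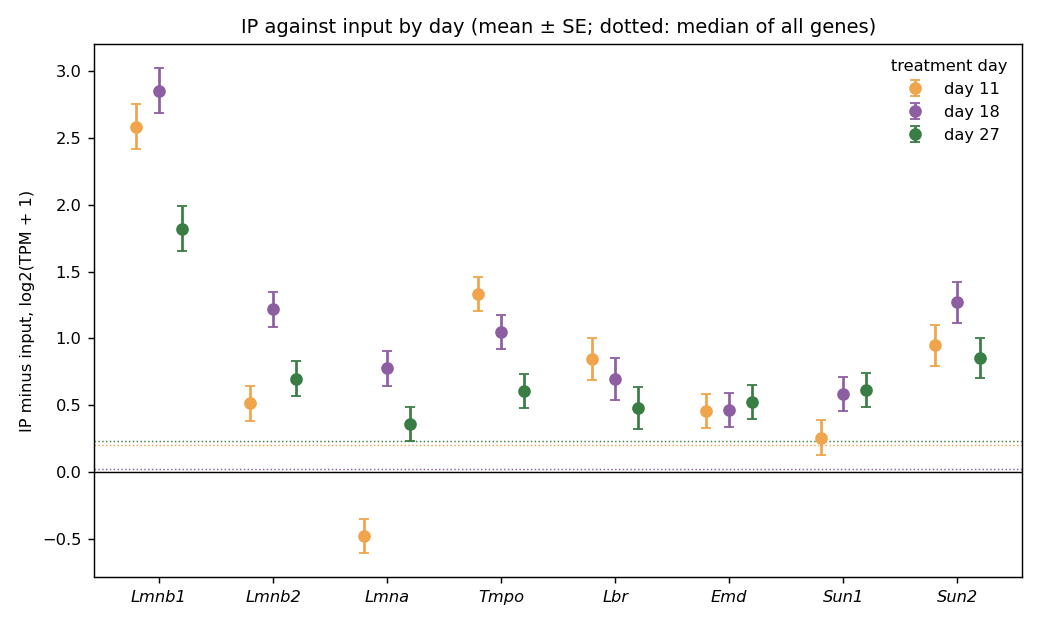
Log2 difference between IP and input, in log2(TPM + 1), for each gene at day 11 (orange), day 18 (purple) and day 27 (green); bars are SE from the limma fit of 24 libraries, and dotted lines are the medians of all genes tested. Lmna is at -0.48 at day 11 and above 0 at the later days, while Tmpo goes down over the days, 1.33, 1.05 and 0.61.

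The change of the IP to input difference between day 27 and day 11 was tested for the 7 members other than Lmnb1. Lmna gained 0.84 ± 0.18 (limma adjusted p = 0.0211) and Tmpo lost, with a change of -0.73 ± 0.18 (limma adjusted p = 0.0434), and the other 5 did not pass. Of all genes, 1.78% passed (1.46% higher and 0.323% lower), 81.9% of them higher (71.7% with rescaled TPM). Both calls lie near the threshold. The Lmna call was lost in 7 of 24 fits that left out 1 library (sedentary a, b and e and running f of the IP, and sedentary b and e and running f of input), with changes of 0.76 to 0.91 over the 24 and adjusted p up to 0.0766. The Tmpo call was lost in 18 of 24, with changes of -0.83 to -0.63 and adjusted p up to 0.134, and was kept without running a of the IP or without running b or sedentary b, c, d or e of input. Lmnb1 changed by -0.77 ± 0.24, given as a description.

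Among lamina partners taken from the list of nuclear envelope genes, 11 of 18 rose in IP over all days and 1 fell, with a median difference of 0.46. The lowest p-values were those of Syne2, a nesprin that binds SUN proteins (18.7 ± 2.43 TPM in IP, 5.95 ± 0.807 TPM in input, difference 1.498 ± 0.08), Lemd2, a LEM-domain membrane protein (21.8 ± 3.04 TPM in IP, 12.1 ± 1.87 TPM in input, 0.81 ± 0.08), and Tmem43 (26.95 ± 3.75 TPM in IP, 17.1 ± 2.43 TPM in input, 0.62 ± 0.08). The gene that fell was Ctdnep1, a phosphatase of the envelope (-0.26 ± 0.10), named after its value was seen. Of 27 nuclear pore genes, 26 rose and 0 fell (median 0.69), with Nup205 at 39.4 ± 4.90 TPM in IP and 14.4 ± 1.64 TPM in input and Nup214 at 44.9 ± 4.49 TPM in IP and 18.9 ± 1.98 TPM in input (SD, n = 12 each). Of 5 genes that farnesylate or trim lamins, 2 rose (Fntb, 0.42 ± 0.10, and Rce1, 0.37 ± 0.12) and 0 fell (median 0.097). Of all genes tested 41.4% rose, with a median of 0.12, so the count of these 5 genes does not set their list apart.

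Marker lists of cell types differed in the same comparison, and their part in the differences of the lamina genes was not tested. All 25 dividing-cell markers rose in IP (median 1.77), as did 17 of 18 newborn-neuron markers (median 1.99) and 16 of 16 stem-cell markers (median 1.27). Of the 15 markers of mature granule cells 10 fell and 3 rose, and 11 of 12 microglial markers fell. Of 15 vessel markers 8 fell and 1 rose over all days, but this count differed by day. At day 11 1 vessel marker fell (median -0.06), at day 27 2 fell (0.008), and at day 18, whose input libraries stood apart, 10 fell (-0.65). Of all genes 69.9% passed in either direction over all days, and 41.4% rose. Of 10 oligodendrocyte markers 8 fell and 1 rose, but their summed TPM was higher in IP (mean 1174) than in input (mean 658). Of 10 astrocyte markers 4 fell and 3 rose.

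In the IP over time, Lmnb1 values at day 11 were 161 and 154 TPM in running libraries and 162 and 109.9 TPM in sedentary libraries. At day 18 they were 172 and 136 TPM in running libraries and 93.1 and 91.8 TPM in sedentary libraries, and at day 27 they were 87.15 and 62.7 TPM in running libraries and 67.1 and 61.5 TPM in sedentary libraries. All 4 libraries of day 27 lay below all 8 of the earlier days, while day 18 and day 11 overlapped. The mean was 147 ± 24.8, 123 ± 38.4 and 69.6 ± 11.9 TPM at the 3 days (SD, n = 4 each). The log2 difference was -0.28 ± 0.14 for day 18 against day 11, -0.78 ± 0.14 for day 27 against day 18 and -1.06 ± 0.14 for day 27 against day 11, all without a test because day 18 and day 27 chose the gene. Between day 27 and day 18, where 0.122% of genes passed, the other members are likewise only described: Lmnb2 differed by -0.31, Tmpo by -0.30, and the remaining 5 by between -0.17 and 0.08.

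Lmna moved the other way. It was at 23.3 and 22.4 TPM in running and 23.4 and 22.85 TPM in sedentary IP libraries at day 11, a range narrower than at any later day. At day 18 it was at 55.1 and 41.2 TPM in running and 29.3 and 35.7 TPM in sedentary libraries, and at day 27 at 43.4 and 47.9 TPM in running and 32.5 and 28.98 TPM in sedentary libraries. All 8 later libraries were above all 4 of day 11. The difference was 0.75 ± 0.12 for day 18 against day 11 (limma adjusted p = 0.00661) and 0.68 ± 0.12 for day 27 against day 11 (limma adjusted p = 0.00281). Without the letter a libraries these were 0.77 with an adjusted p of 0.102 and 0.70 with an adjusted p of 0.0318.

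Tmpo fell to 46.5 and 49.7 TPM in running and 57.5 and 60.3 TPM in sedentary IP libraries at day 27, against 63.1 and 83.0 TPM in running and 88.4 and 72.6 TPM in sedentary libraries at day 11. The days did not overlap, and the difference was -0.51 ± 0.12 (limma adjusted p = 0.00918). It was lost only without the sedentary IP library a of day 11, at -0.44 with an adjusted p of 0.0646, among the 12 fits that left out 1 IP library. At day 18 Tmpo had 65.6 ± 4.35 TPM (SD, n = 4), a difference of -0.21 ± 0.12 to day 11 that did not pass.

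Sun1 had 53.0 and 61.1 TPM in running and 54.7 and 48.35 TPM in sedentary IP libraries at day 27, against 38.3 and 42.9 TPM in running and 43.98 and 46.4 TPM in sedentary libraries at day 11. The days did not overlap, and the difference passed narrowly (0.33 ± 0.10, limma adjusted p = 0.0438). It did not pass with rescaled TPM (0.19, adjusted p = 0.159), without a filter (adjusted p = 0.0574) or in 10 of 12 fits that left out 1 IP library (adjusted p up to 0.165), all but those without running b of day 11 or running e of day 27.

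Between day 27 and day 11, 3 of the 7 tested members thus passed, 2 higher and 1 lower, where 15.3% of genes passed (11.4% higher and 3.88% lower), so that 74.6% of calls were higher (46.0% with rescaled TPM). Between day 18 and day 11, 1 of 7 passed where 5.66% of genes did (4.56% higher), so that 80.6% of calls were higher (50.7% with rescaled TPM). Rescaling moved the median of all genes by -0.13 and -0.10 in these comparisons. Lmnb2, with 19.99 ± 2.20, 27.4 ± 4.19 and 21.9 ± 2.90 TPM at the 3 days (SD, n = 4 each), did not pass at day 18 (0.43 ± 0.13, limma adjusted p = 0.0602), and passed without the running IP library b of day 11 (0.50, adjusted p = 0.0223). Its 4 libraries of day 18 were all above those of day 11. Lbr (18.8 ± 2.06, 18.2 ± 1.597 and 16.7 ± 3.08 TPM), Emd (27.7 ± 3.37, 27.1 ± 5.03 and 26.9 ± 1.63 TPM) and Sun2 (31.5 ± 7.74, 36.4 ± 6.45 and 31.9 ± 1.79 TPM) overlapped between days and did not pass.

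The make-up of lamin RNA in the IP followed these courses. Lmnb1 made up 77.0 ± 3.72% of the summed TPM of the 3 lamin genes at day 11, 64.1 ± 3.10% at day 18 and 53.8 ± 4.26% at day 27, and Lmna 12.3 ± 1.74%, 21.2 ± 1.45% and 29.3 ± 4.59% (SD, n = 4 each). Lmnb2 held 10.7 ± 2.12%, 14.7 ± 2.03% and 16.9 ± 0.722%. The ratio of Lmnb1 to Lmna was 6.39 ± 1.05, 3.04 ± 0.323 and 1.88 ± 0.381 at the 3 days, with no overlap between days. In input the ratio stayed below 1 in all 12 libraries, at 0.735 ± 0.165, 0.705 ± 0.181 and 0.651 ± 0.0554. These shares include the Lmnb1 values that chose the gene and carry no test.

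**Figure D3:**
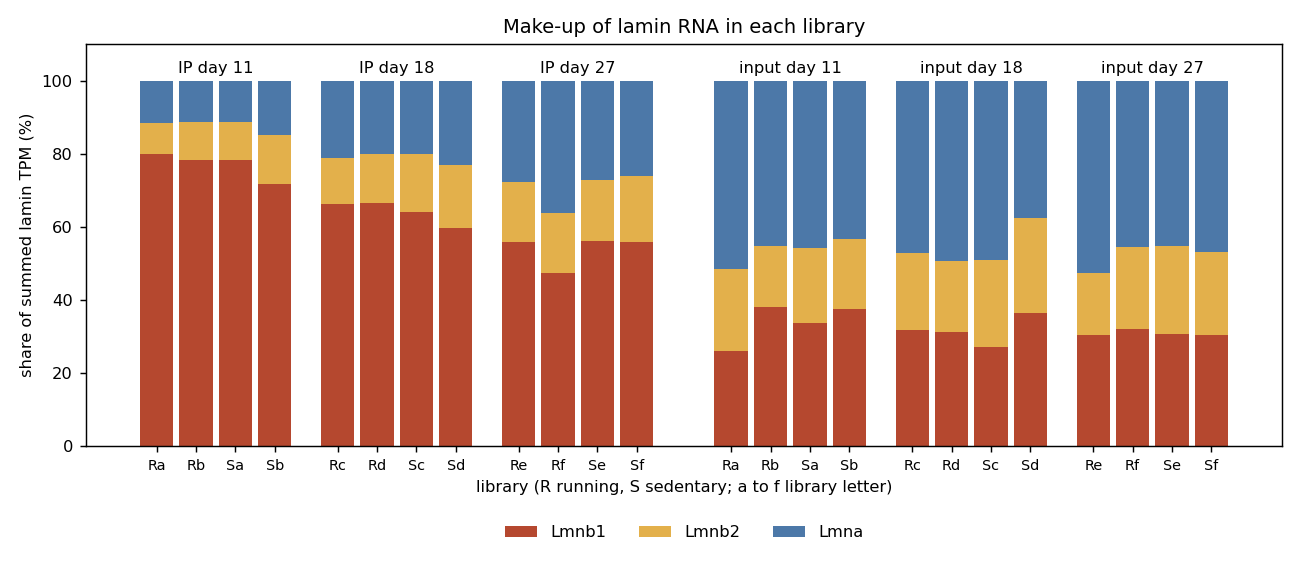
Share of Lmnb1 (brown), Lmnb2 (yellow) and Lmna (blue) in the summed TPM of the 3 lamin genes, in percent, for each library (R running, S sedentary, with the library letter). In IP the Lmnb1 share is 71.6% to 80.0% at day 11 and 47.4% to 56.2% at day 27, and in input it is 26.0% to 37.9% at day 11.

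Cell type markers moved over the same days in the IP. Of 25 dividing-cell markers, 19 fell between day 27 and day 11 and 0 rose (median -0.75, against 0.15 for all genes), with day 27 at 31.9 ± 3.33 TPM and day 11 at 79.8 ± 12.9 TPM for Top2a. Tpx2, a spindle assembly factor, had 18.0 ± 1.67 TPM at day 27 against 47.6 ± 7.30 TPM at day 11 (SD over 4 libraries). The summed TPM of this list was 391 to 422 at day 27 and 608 to 798 at day 11. Of 15 mature granule cell markers 11 rose and 0 fell (median 0.67), and their sum was 5393 to 8386 TPM at day 27 and 4096 to 4461 TPM at day 11. Of 18 newborn-neuron markers 6 fell and 0 rose. Stem-cell markers fell in 3 of 16 (median -0.30), microglial markers in 3 of 12 (-0.41), astrocyte markers in 1 of 10 (-0.21) and fibroblast markers in 1 of 10 (-0.25). In each of these lists 0 rose, and of all genes 3.88% fell. None of the 10 oligodendrocyte markers and none of the 15 vessel markers passed in the limma test (1 vessel marker at an unadjusted p below 0.05). The sum of the vessel markers was 101 to 173 TPM at day 27 and 106 to 155 TPM at day 11. The part of these cells in the changes of Lmnb1, Tmpo, Lmna and Sun1 was not tested.

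**Figure D4:**
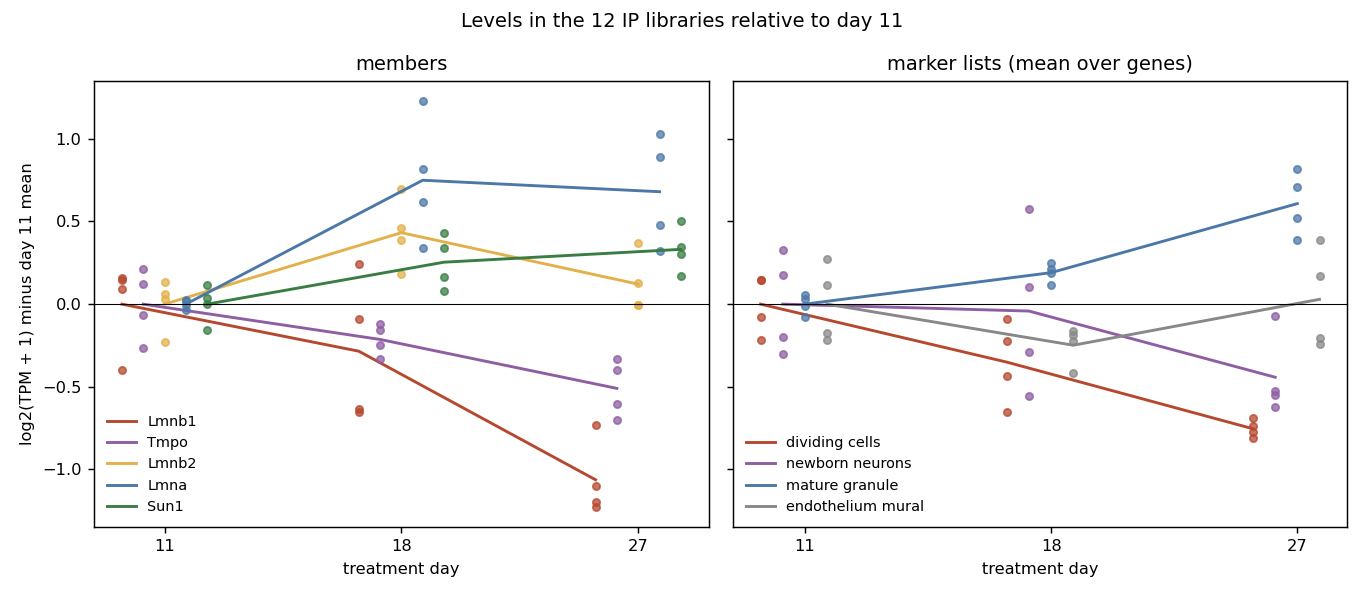
Levels in the 12 IP libraries at each treatment day, as log2(TPM + 1) minus the mean of day 11, for 5 lamina genes (left) and for 4 marker lists as the mean over their genes (right); points are libraries and lines join means of 4. At day 27 Lmnb1 is at -1.06, Tmpo at -0.51 and Lmna at 0.68, and the lists of dividing cells and mature granule cells are at -0.75 and 0.61.

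Of the 18 envelope partners 2 rose in the IP between day 27 and day 11 and 0 fell, and of 27 pore genes 2 rose and 0 fell. Against the 11.4% of all genes that rose in this comparison, neither count sets its list apart. The partners that rose were Tmem201, a membrane protein that binds lamins (48.8 ± 2.73 TPM at day 27, 30.6 ± 4.34 TPM at day 11, 0.67 ± 0.12), and Iffo1 (29.4 ± 3.66 TPM at day 27, 19.3 ± 0.839 TPM at day 11, 0.58 ± 0.13). Iffo1 was also the only partner whose IP to input difference changed (0.86 ± 0.18, limma adjusted p = 0.0211). The pore genes that rose were Nup210 (26.2 ± 3.18 TPM at day 27, 17.0 ± 2.91 TPM at day 11) and Pom121 (46.25 ± 5.89 TPM at day 27, 35.2 ± 0.792 TPM at day 11), which are both membrane-spanning nucleoporins. None of the 5 lamin-processing genes passed in the limma test (1 at an unadjusted p below 0.05).

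The genes whose levels were most like those of Lmnb1 over the 12 IP libraries, among 11754 genes with a mean of at least 5 TPM there, were Supt16 (Pearson r = 0.975 on log2(TPM + 1)), Rad21 (0.971), Rnf115 (0.969), Odc1 (0.968) and Pdcl (0.966). Supt16 had 225, 199.6 and 143 TPM at the 3 days and Rad21 had 218, 190.2 and 149.9 TPM (means of 4 libraries). The 12 points share the days, the activity groups and the scale of each library, and no p is given.

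In input, Lmnb1 and Lmna fell at day 18. Lmnb1 had 17.3 and 13.6 TPM in running and 14.1 and 17.6 TPM in sedentary input libraries at day 18, against 17.8 and 32.3 TPM in running and 20.8 and 24.6 TPM in sedentary libraries at day 11, with no overlap (-0.56 ± 0.18, limma adjusted p = 0.0239). Lmna had 25.7 and 21.5 TPM in running and 25.6 and 18.2 TPM in sedentary input libraries at day 18, against 35.4 and 38.5 TPM in running and 28.4 and 28.4 TPM in sedentary libraries at day 11 (-0.50 ± 0.13, limma adjusted p = 0.00902). Here 49.2% of genes passed (11.4% lower), and 76.8% of calls were higher (63.2% with rescaled TPM, which moved the median of all genes by -0.14), and the olfactory receptor mean given above moved with the day. Marker lists moved as well: 14 of 25 dividing-cell markers rose and 0 fell (median 0.69, against 0.23 for all genes), with a summed level of 201 to 230 TPM at day 18 and 149 to 155 TPM at day 11. Of 18 newborn-neuron markers 9 fell and 1 rose (median -0.28), with sums of 1446 to 1678 TPM at day 18 and 1845 to 2378 TPM at day 11, and of 15 mature granule cell markers 6 fell and 0 rose (median -0.35). The part of these values in the calls of Lmnb1 and Lmna was not tested. The Lmnb1 call was lost without any 1 of 4 libraries: the sedentary input library b of day 11 (-0.50, adjusted p = 0.0810), the running library b of day 11 (-0.35, 0.0758), the sedentary library c of day 18 (-0.48, 0.0948) and the running library d of day 18 (-0.47, 0.0818).

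Between day 27 and day 11 in input, 0 of 8 members passed in the limma test and 0 had an unadjusted p below 0.05, with 0% of all genes passing. Lmnb1 differed by -0.30 ± 0.18 and Tmpo by 0.22 ± 0.14. Between day 27 and day 18, 0 of 8 passed where 37.1% of genes did, and 1, Lmna, had an unadjusted p below 0.05 (0.35 ± 0.13, limma adjusted p = 0.0609).

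Running was compared with the blocked wheel in each fraction, the question the series names. In the IP over all days, 0 of 8 members and 0.00579% of all genes passed in the limma test. There were 2 members with an unadjusted p below 0.05. The share of all genes below that unadjusted p is not given here, so this count has no background to be read against. Lmnb1 averaged 129 ± 43.997 TPM in running and 97.6 ± 36.4 TPM in sedentary IP libraries (SD, n = 6 each, both over 3 days), a difference of 0.39 ± 0.11 (limma adjusted p = 0.202). Lmna averaged 38.9 ± 13.3 TPM in running and 28.8 ± 5.03 TPM in sedentary IP libraries, a difference of 0.36 ± 0.10 (limma adjusted p = 0.186). The other 6 members differed by between -0.16 and 0.12.

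By day the values of Lmnb1 in the IP were 0.24 ± 0.20 at day 11, 0.72 ± 0.20 at day 18 and 0.20 ± 0.20 at day 27 (running minus sedentary, log2 ± SE), and the running and sedentary libraries did not overlap at day 18. Those of Lmna were -0.02 ± 0.18, 0.54 ± 0.18 and 0.56 ± 0.18, without overlap at day 18 and day 27. No member passed at any day (limma adjusted p of at least 0.394 for Lmna and 0.407 for Lmnb1). At an unadjusted p below 0.05 there was 1 member at day 11 (Sun2, at -0.48 ± 0.22), 2 at day 18 (Lmnb1 and Lmna) and 1 at day 27 (Lmna), again without the like share of all genes. The share of all genes that passed after adjustment was 0%, 0% and 0.0289%. The change of the running difference between days was not tested.

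In input 0 of 8 members passed over all days or at any day in the limma test, 0 had an unadjusted p below 0.05, and the share of genes that passed was 0% over all days and 0%, 0.00977% and 0% by day. Lmnb1 averaged 19.98 ± 6.43 TPM in running and 18.9 ± 3.66 TPM in sedentary input libraries, and Lmna 30.4 ± 6.25 TPM in running and 25.97 ± 4.36 TPM in sedentary input libraries (SD, n = 6 each). The running effect in the IP minus that in input was 0.34 ± 0.19 for Lmnb1 and 0.15 ± 0.15 for Lmna, and 0 of 8 members passed (limma adjusted p of at least 0.803, with 0 at an unadjusted p below 0.05 and 0% of genes passing).

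**Figure D5:**
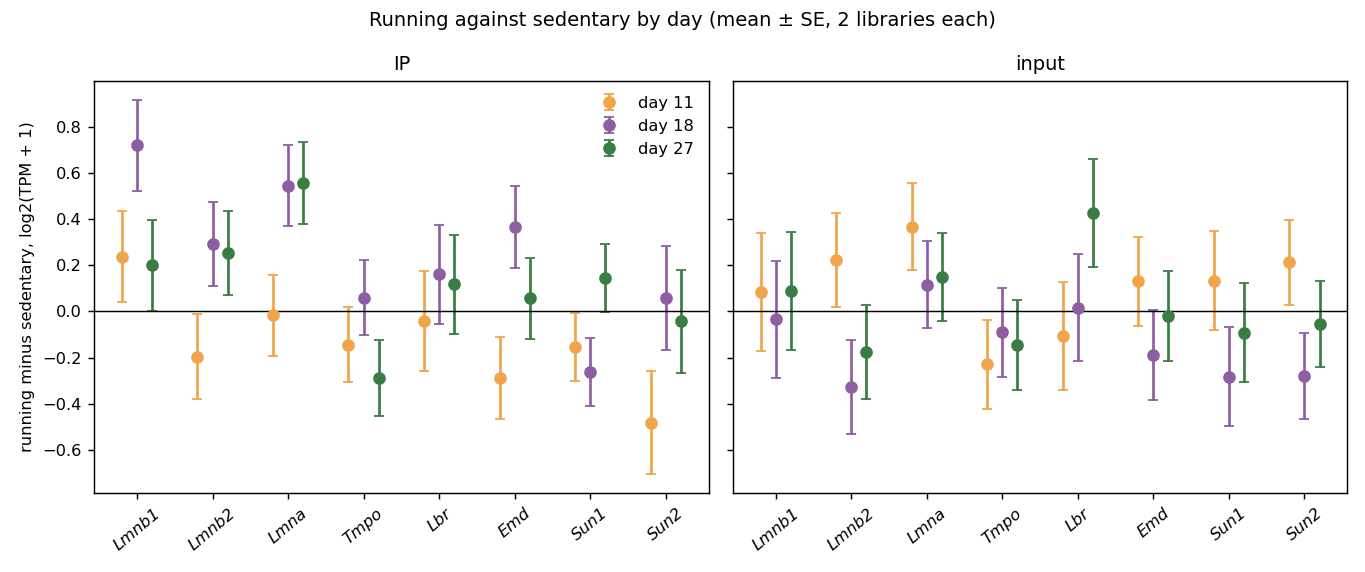
Log2 difference between running and sedentary libraries, in log2(TPM + 1), for each gene in IP (left) and input (right) at day 11 (orange), day 18 (purple) and day 27 (green); bars are SE from the limma fits, with 2 libraries in each arm. In IP Lmnb1 is at 0.72 at day 18, and Lmna at 0.54 and 0.56 at day 18 and day 27, and none of these passed the test.

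For the same comparison in the IP the marker lists gave these values, again without the share of all genes at an unadjusted p below 0.05. Of the 18 newborn-neuron markers 17 were positive in running against sedentary libraries (median 0.33, against -0.07 for all genes), 0 passed in the limma test and 12 had an unadjusted p below 0.05, with a summed level of 4011 to 8437 TPM in running and 3658 to 5817 TPM in sedentary libraries. Of the 16 stem-cell markers 1 was positive (median -0.35), 0 passed and 11 had an unadjusted p below 0.05. Of the 25 dividing-cell markers 22 were positive (median 0.11), 0 passed and 4 had an unadjusted p below 0.05, with sums of 415 to 798 TPM in running and 391 to 769 TPM in sedentary libraries. Of the 10 astrocyte markers 0 were positive (median -0.36), 0 passed and 8 had an unadjusted p below 0.05. Microglial markers were positive in 0 of 12 (median -0.24), oligodendrocyte markers in 1 of 10 (-0.25) and fibroblast markers in 1 of 10 (-0.24). Vessel markers were positive in 3 of 15 (median -0.10) and mature granule cell markers in 10 of 15 (0.03). In these lists too 0 passed. At day 11 newborn-neuron markers were positive in 8 of 18 (median -0.01) and dividing-cell markers in 16 of 25 (median 0.09), and 0 passed. The median of all genes at day 11 was -0.11. At day 18 alone, 18 of 18 newborn-neuron markers (median 0.73, 14 at an unadjusted p below 0.05) and 24 of 25 dividing-cell markers (median 0.38, 9 at an unadjusted p below 0.05) were positive, and 0 passed. At day 27 the newborn-neuron markers were positive in 16 of 18 (median 0.30) and the dividing-cell markers in 11 of 25 (median -0.05), and 0 passed. Their part in the values of Lmnb1 and Lmna was not tested.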

How the data were processed

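The authors deposited TPM values for 24 libraries, made with RSEM on mm10 per the submitters' processing notes. Not given in the sources used here are the aligner, the RSEM version and how strand was handled. Each column sums to 1000000, so depth per library is unknown and precision rests on the spread between libraries. Groups were taken from the labels (12 groups of 2). Genes were tested two-sided with lmFit and eBayes (trend and robust set) of limma 3.58.1, R 4.3.3, on log2(TPM + 1), a pseudocount of 1 that understates changes of low genes. A gene entered a fit with a mean of at least 1 TPM over its libraries: 19507 in all libraries, 17282 in IP and 20462 in input. Benjamini-Hochberg adjustment ran over all genes of each contrast, the threshold was 0.05, and "rose", "fell" and "passed" refer to it. SE are limma's moderated values. Tables were handled with Python 3.11.15 (pandas 2.3.3, numpy 2.4.6).

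Named genes were the 8 members, up to 3 genes of lowest p in each list, and the 5 genes most correlated with Lmnb1. Of 184 list entries in 12 lists, 3 had no entry in the table. The members and lists were chosen with earlier results of these data known. Alternatives were a pseudocount of 0.1, no filter, median-of-ratios scaling, a replicate block, leaving out day 18, the letter a libraries or 1 library, and, chosen after seeing the data, leaving out the letter a libraries in contrasts of days and of single days.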

Additional observations from a re-analysis of the deposited data

Results flagged for a closer look

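The IP to input difference changed between day 27 and day 11 for a pair of genes, by a test of the change itself (limma, Benjamini-Hochberg over 19507 genes). For Lmna the change was 0.84 ± 0.18 (SE, adjusted p = 0.0211): its IP to input difference was 0.36 at day 27 and -0.48 at day 11. For Tmpo the change was -0.73 ± 0.18 (SE, adjusted p = 0.0434): its difference was 0.61 at day 27 and 1.33 at day 11. Leaving out 1 library at a time, the Lmna call was lost in 7 of 24 fits and the Tmpo call in 18 of 24. With the marker lists tested the same way, 9 of 25 dividing-cell markers had a lower and 5 of 15 mature granule cell markers a higher difference at day 27. The part of these cells was not tested.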

How the results depend on the processing

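Median-of-ratios scaling turned the pooled IP to input difference of Lmna to -0.054 and leaving out day 18 to -0.059, and no other called value changed sign under any setting run. That scaling left 4 members called at day 27 in IP against input. For the change of this difference between day 27 and day 11, 1 member stayed called with no filter (Lmna), 1 with the scaling (Tmpo, with Lmna at an adjusted p of 0.0503), 1 without the letter a libraries (Lmna), and 0 to 2 when 1 library was left out. The count for day 18 against day 11 in the IP was 0 without the letter a libraries and 1 to 2 with 1 library left out, that for day 27 against day 11 was 1 to 3, and that for day 18 against day 11 in input was 1 to 2. A replicate block of activity and letter left 0 members with a changed IP to input difference (adjusted p of 0.0990 for Lmna and 0.117 for Tmpo) and a limma adjusted p of 0.0561 for Lmna at day 27 in IP against input. A replicate block of letter gave 1 member for running in the IP (Lmnb1, 0.39, adjusted p = 0.0389). The IP values of Lmnb1 at day 18 and day 27 chose the gene and enter this p, which is not independent of the choice. The share of all genes passing under this block is not given here. Apart from all these changes with the setting, the cause of which was not tested, the counts of members kept within 1.5 times the reported one. The letters are not shown to pair the libraries: deviations from group means correlated between running and sedentary libraries of a letter at 0.197, 0.0484 and 0.0568 in IP and 0.268, 0.0795 and 0.0816 in input, and between IP and input at -0.278 to -0.00829. TPM keeps no depth, so counting error cannot be separated from the spread of 2 libraries a group.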
